A study of Homo sapiens with 24 samples.

Results

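The HOX genes are the homeobox genes that lie in 4 clusters, HOXA on chromosome 7, HOXB on chromosome 17, HOXC on chromosome 12 and HOXD on chromosome 2. They were taken from the mRNA table by symbol, as HOX followed by a cluster letter from A to D and a number, with no use of their values. All 39 were listed among the 22026 genes of the table, 11 of HOXA, 10 of HOXB, 9 of HOXC and 9 of HOXD. The cells were A549, a cell line grown from a human lung adenocarcinoma, and by its title the study looked for markers of epithelial-mesenchymal transition. They received conditioned medium of what the labels call CAF, which in this field usually means cancer-associated fibroblasts, or control medium, and were collected after 3, 6, 12, 24, 48 and 72 h. The labels give neither the origin nor the number of CAF cultures behind the conditioned medium, nor the make-up of the control medium, and they name no genetic change in any group. Each medium had 6 mRNA and 6 small RNA libraries, 1 per time, in RPKM (reads scaled to gene model length and to the mapped reads of the library) and in RPM (reads scaled to the library total alone). The 2 biological replicates that the design text gives for each sample cannot be seen apart in the values. The 6 times therefore stand as replicates of the medium effect, a single time has no replicate check, and p-values measure only how these libraries vary, a spread that may be technical.

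HOX proteins are transcription factors that bind DNA through a homeodomain and give cells of the embryo their position along the head-to-tail axis. Genes with low numbers sit at the 3′ end of a cluster and act towards the head, those with high numbers sit at the 5′ end and act towards the tail, and genes of 1 number in different clusters are paralogs. Many adult cells keep the HOX pattern of their place of origin, held by Polycomb proteins where genes are silent and by Trithorax proteins where they are active. In the mouse lung Hoxa5 and Hoxb5 act in the mesenchyme during branching, and many carcinomas express HOX genes that their tissue of origin does not use.

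Depth was 23.9 to 29.3 M implied reads in the mRNA libraries of 3 to 12 h, 33.9 to 40.6 M in those of 24 to 72 h and 0.868 to 5.77 M in the small RNA libraries. Of the HOX genes 23 had a mean of at least 1 RPKM over the 12 libraries and were tested among 12029 genes. These had between 25 and 3206 implied reads in a library. The cells matched their label as an epithelial line: 6 of 6 epithelial markers were detected in every library, and together they measured 3299 to 5530 RPKM in CAF medium and 4280 to 5043 RPKM in control medium. Nearly all of this was KRT8, KRT7 and KRT18, with means of 1862, 1746 and 906 RPKM. CDH1, KRT19 and EPCAM averaged 13.15, 9.25 and 2.03 RPKM, and EPCAM was as low as 0.24 RPKM in control medium at 3 h. The alveolar type 2 markers SFTPC, SFTPB and NKX2-1, which define the cell type to which A549 is often assigned, summed to at most 0.22 RPKM in any library. The 8 fibroblast markers summed to 5.97 to 8.0 RPKM in CAF medium and 2.65 to 7.65 RPKM in control medium.

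The HOX genes of A549 cells reached from abundant to undetected. The middle of the HOXB cluster was highest: HOXB7 averaged 44.0 RPKM over the 12 libraries, 27.9% of the summed level of all HOX genes. HOXC9 followed with 16.4 RPKM, then HOXB6 with 14.01, HOXB8 with 8.88, HOXD10 with 8.28 and HOXB9 with 6.97 RPKM. HOXB7 was above HOXC9 in 12 of 12 libraries, and HOXB6 was above HOXB8 in 12 of 12. HOXC9 and HOXB6 could not be ordered, since HOXC9 was the higher in 7 of 12 libraries, nor could HOXB8 and HOXD10, with HOXB8 the higher in 6 of 12. By cluster, HOXB held 55.4% of the summed level, HOXC 22.6%, HOXD 12.1% and HOXA 9.82%.

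**Figure D1:**
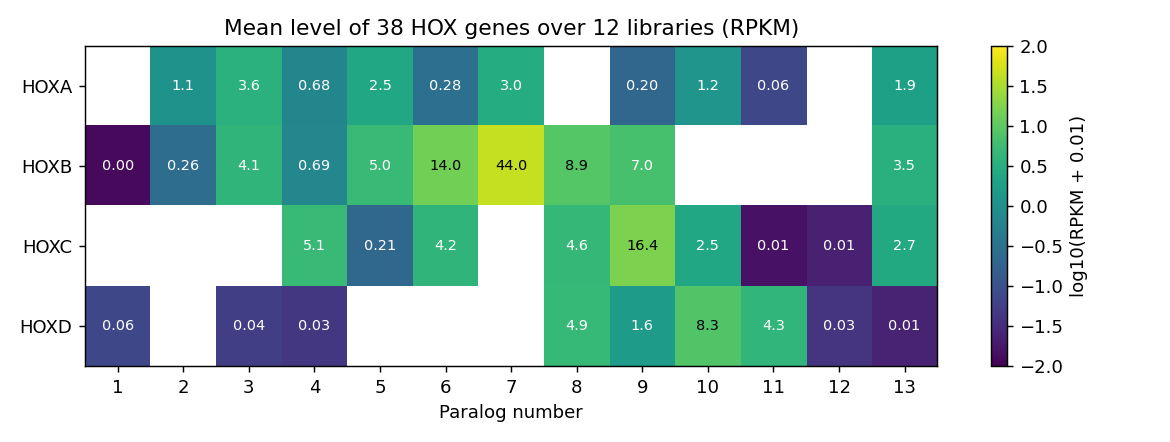
Mean RPKM of 38 HOX genes over 12 libraries, with clusters as rows and paralog numbers as columns; the colour is log10 of RPKM + 0.01 and white squares have no gene plotted. HOXB6 to HOXB9 with means of 6.97 to 44.0 RPKM and HOXC9 with 16.4 RPKM stand out, while HOXA11, HOXB1, HOXC11, HOXC12 and the members at both ends of HOXD lie under 0.1 RPKM.

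The 16 members under a mean of 1 RPKM were not tested. HOXA2, with 1.14 RPKM, lay just inside that limit, and HOXB4, with 0.691 RPKM, lay outside it. HOXB4 was the highest untested gene of HOXB, HOXC5 with 0.215 RPKM that of HOXC and HOXD1 with 0.0625 RPKM that of HOXD. Of the 16, 7 lay between 0.1 and 1 RPKM, such as HOXA4, HOXB2 and HOXB4, and 9 under 0.1 RPKM. These 9 were HOXA11, HOXB1, HOXC11, HOXC12, HOXD1, HOXD3, HOXD4, HOXD12 and HOXD13, and none of them exceeded 0.27 RPKM in any library. HOXB1, which specifies a segment of the hindbrain, was listed at 0 in 11 of 12 libraries. In the HOXD cluster HOXD8 to HOXD11 were expressed while the genes on either side of this block were at or near 0.

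Promoter sequence could be set beside these levels for 20 of the 39 members, from RefSeq on GRCh38.p14, as the 250 bases before and 50 bases after the start of each gene. HOXD4 is shown because it was near 0, HOXD11 because it was expressed and changed with time, and HOXC4 because its window is letter for letter that of HOXC5. Capitals mark a CCAAT box in HOXC4 and HOXD4 (read as ATTGG on this strand), and in HOXD11 a match on the opposite strand to TGATTNAT, the letters that HOX and PBX proteins bind together.
HOXC4 (chr12:54016638-54016937, + strand): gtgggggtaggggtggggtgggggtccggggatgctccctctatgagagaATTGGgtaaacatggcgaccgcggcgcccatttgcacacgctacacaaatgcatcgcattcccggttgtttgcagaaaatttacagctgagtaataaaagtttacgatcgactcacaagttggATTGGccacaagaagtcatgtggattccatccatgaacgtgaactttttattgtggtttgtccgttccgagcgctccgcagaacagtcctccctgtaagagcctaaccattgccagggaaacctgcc
HOXD4 (chr2:176151300-176151599, + strand): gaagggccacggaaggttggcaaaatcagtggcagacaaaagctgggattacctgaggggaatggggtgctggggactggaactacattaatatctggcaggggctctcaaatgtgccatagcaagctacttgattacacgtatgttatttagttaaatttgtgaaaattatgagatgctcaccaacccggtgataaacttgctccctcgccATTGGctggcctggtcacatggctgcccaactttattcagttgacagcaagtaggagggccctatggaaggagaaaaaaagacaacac
HOXD11 (chr2:176107030-176107329, + strand): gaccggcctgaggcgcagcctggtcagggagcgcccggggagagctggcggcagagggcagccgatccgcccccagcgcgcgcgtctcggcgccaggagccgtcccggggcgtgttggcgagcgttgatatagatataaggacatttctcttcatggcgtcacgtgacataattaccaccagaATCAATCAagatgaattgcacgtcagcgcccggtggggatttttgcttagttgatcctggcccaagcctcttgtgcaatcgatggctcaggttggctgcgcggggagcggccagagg

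The HOXD4 window held 4 CG dinucleotides, the fewest of the 20, against 15 for HOXC4 and 27 for HOXD11. The 20 HOX windows ranged from 4 to 44 CG with a median of 22.5, and the 27305 windows of all genes had a median of 14. Within these 20, the 9 members of at least 1 RPKM had a median of 23 CG and the 11 members below it a median of 22. HOXB7, HOXC9, HOXB6 and HOXB8, with 52.8% of the summed level, had no matched window, nor did HOXC10 and HOXB13. The comparison thus leaves out the most abundant members. It also counts the shared window of HOXC4 and HOXC5 once in each group. On either strand, CCAAT was in 17 of the 20 HOX windows and in 35.7% of all windows, TGATTNAT was in 2 (HOXA2 and HOXD11) and in 2.94% of all, TATAAA was in 4 and in 12.0% of all, and AGGTCA, the core letters that retinoic acid receptors bind, was in 0 of 20 and in 13.9% of all. HOXC4 and HOXC5 share this start in RefSeq, yet HOXC4 averaged 5.10 RPKM and HOXC5 0.215 RPKM. Overlapping models of this kind, also along HOXA and HOXB, can share reads, and how the authors' counting split them is not stated.

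The first comparison asked which HOX genes CAF medium changed over the 6 times. HOXC10 and HOXB13 rose. HOXC10, a gene of the lumbar and hindlimb region in the mouse embryo, measured 1.85, 1.76, 3.56, 2.77, 4.85 and 4.85 RPKM in CAF medium at 3, 6, 12, 24, 48 and 72 h, against 0.71, 0.81, 1.69, 1.36, 2.88 and 3.31 RPKM in control medium at the same times. CAF medium was the higher at 6 of 6 times, although the ranges overlapped because the level climbed in both media. The mean was 3.27 ± 1.39 RPKM in CAF medium and 1.79 ± 1.08 RPKM in control medium (SD over 6 times), a log2 difference of 0.77 ± 0.10 on log2(RPKM + 0.5) (SE, limma with Benjamini-Hochberg adjustment over 12029 genes, adjusted p = 0.010). In bulk RNA, more cells that express the gene and more RNA per cell cannot be told apart.

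HOXB13, a gene of the tail end that acts in the prostate and hindgut, measured 2.97, 2.71, 4.56, 5.60, 4.13 and 4.74 RPKM in CAF medium at 3 to 72 h. In control medium it measured 1.74, 1.57, 1.89, 3.29, 4.37 and 3.97 RPKM. CAF medium was the higher at 5 of 6 times, all but 48 h, and the gap was widest at 12 h. The means were 4.12 ± 1.10 RPKM in CAF medium and 2.81 ± 1.23 RPKM in control medium (log2 0.53 ± 0.14, limma, adjusted p = 0.0396). HOXB13 missed the threshold without 3 h (adjusted p = 0.0663), 6 h (0.115), 12 h (0.111) or 24 h (0.120), while HOXC10 passed whichever time was left out (adjusted p = 0.00787 to 0.0496). With no filter on low values the adjusted p was 0.0689 for HOXC10 and 0.114 for HOXB13, and with no time term 0.340 and 0.349.

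These were 2 of the 23 tested HOX genes that rose, and 0 fell (limma, 5 of 23 at an unadjusted p under 0.05). Over all tested genes 6.06% rose and 4.13% fell. Of the 23 log2 differences 17 were above 0 with a median of 0.12, against 50.3% above 0 and a median of 0.00 over all tested genes. Without 3 h 13 were above 0 with a median of 0.03, and without 48 h or 72 h 18 were, with medians of 0.22 and 0.21. By cluster, over the 6 times, 7 of 7 HOXB, 5 of 6 HOXA, 3 of 6 HOXC and 2 of 4 HOXD genes were above 0.

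Other members came close to the threshold without passing it. HOXC13, which drives keratin genes in the hair follicle, measured 2.52 to 3.87 RPKM in CAF medium with a median of 2.89 and 1.50 to 3.31 RPKM in control medium with a median of 2.15. It was higher in CAF medium at 6 of 6 times (log2 0.34 ± 0.10, limma, adjusted p = 0.0603). HOXB8, which acts in blood cell precursors of the mouse, measured 9.30 to 10.8 RPKM in CAF medium with a median of 10.0 and 5.89 to 10.7 RPKM in control medium with a median of 7.19. Its CAF medium values were nearly level, and it was lower in CAF medium at 48 h alone (log2 0.39 ± 0.13, limma, adjusted p = 0.0733). Without 48 h it passed (adjusted p = 0.0345). HOXD11, a limb gene, measured 2.60 to 5.10 RPKM in CAF medium with a median of 3.78 and 3.08 to 6.53 RPKM in control medium with a median of 4.92, and was lower in CAF medium at 5 of 6 times (log2 -0.30 ± 0.11, limma, adjusted p = 0.0983).

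The most abundant member, HOXB7, averaged 46.2 ± 20.8 RPKM in CAF medium and 41.9 ± 5.76 RPKM in control medium (SD over 6 times). The wide spread in CAF medium came from 1 library, 86.1 RPKM at 12 h, where control medium had 50.4 RPKM. The other CAF medium libraries lay between 27.0 and 47.5 RPKM, and the 95% interval of the log2 difference ran from -0.26 to 0.36 (limma, adjusted p = 0.835). The summed level of the HOXB cluster was accordingly highest in that library, 137.8 RPKM, against 73.4 RPKM in the lowest CAF medium library and 72.9 to 89.1 RPKM in control medium. The ranges of the other clusters overlapped between media. HOXA summed to 13.8 to 19.0 RPKM in CAF medium and 12.5 to 17.8 RPKM in control medium. HOXC summed to 26.0 to 49.4 and 32.9 to 39.4 RPKM in that order, and HOXD to 14.9 to 23.2 and 16.7 to 21.03 RPKM. In CAF medium HOXC lay above the control medium range at 6 and 12 h and below it at 24, 48 and 72 h. HOXD lay above its control medium range at 3 and 24 h and below it at 72 h. HOXA lay outside its control medium range at 3 h alone, where it was higher.

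Among all 39 members 4 were higher in CAF medium at 6 of 6 times, HOXC10, HOXC13, HOXD1 and HOXD4, and HOXA6 was lower at 6 of 6 times. Over all 22026 genes listed, 6.73% were higher and 4.81% lower at 6 of 6 times. HOXD4 was at 0.05, 0.06, 0.06, 0.07, 0.02 and 0.15 RPKM in CAF medium and was listed at 0 in all 6 control medium libraries. These values stand for 1 to 8 implied reads per CAF medium library, 18 in all, and 0 in control medium. HOXD1 had 43 implied reads over the CAF medium libraries and 14 over the control medium libraries, so both genes rest on very few reads, and the level is near 0 in either medium. HOXA6 measured 0.09 to 0.29 RPKM in CAF medium and 0.16 to 0.52 RPKM in control medium.

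The medium effect was also fitted for 3 to 12 h and for 24 to 72 h, and its difference between the 2 periods passed the test for 0 of 23 HOX genes. At 3 to 12 h HOXC10, HOXB13 and HOXB5 rose: the log2 differences were 0.88 ± 0.15 for HOXC10 (limma, adjusted p = 0.0131), 0.78 ± 0.17 for HOXB13 (adjusted p = 0.0294) and 0.56 ± 0.14 for HOXB5 (adjusted p = 0.0407). That is 3 of 23 HOX genes up and 0 down, against 3.77% up and 1.86% down over all tested genes. HOXB5 measured 5.91, 5.11 and 7.62 RPKM in CAF medium and 3.72, 4.02 and 4.30 RPKM in control medium at 3, 6 and 12 h. The early groups of HOXB5 did not overlap. HOXB5 missed the threshold under quantile normalization (adjusted p = 0.0613) and without 3 h (0.0915), 6 h (0.151), 12 h (0.181) or 72 h (0.0567). HOXB13 missed it without 3 h (0.0503), 6 h (0.154) or 12 h (0.167), and HOXC10 without 6 h (0.107) or 12 h (0.0892), so that 0 HOX genes passed without 6 h or without 12 h. With no filter on low values none of the 3 passed (adjusted p = 0.131, 0.150 and 0.145 for HOXC10, HOXB13 and HOXB5).

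The early differences of the other members mostly had the same sign. Of the 23 tested HOX genes 21 were above 0, with a median log2 difference of 0.30, against 54.4% above 0 and a median of 0.03 over all tested genes. The count above 0 was 19 under median centring, 18 under quantile normalization and 17 to 21 with a time left out. The HOXB genes had the highest median at 0.56, with 7 of 7 above 0, followed by HOXC at 0.38 with 6 of 6, HOXA at 0.24 with 6 of 6 and HOXD at 0.08 with 2 of 4. HOXB3, a gene of the hindbrain and neck region, measured 4.77, 5.29 and 3.14 RPKM in CAF medium and 2.47, 2.49 and 3.13 RPKM in control medium (log2 0.59, limma, adjusted p = 0.0962). Its gap was thus at 3 and 6 h, and at 12 h the media were level. HOXB8 was at log2 0.58 (adjusted p = 0.0601), HOXA2 at 0.55 (0.197), HOXC13 at 0.49 (0.0659), HOXA13 at 0.48 (0.304), HOXB6 at 0.43 (0.0700) and HOXC4 at 0.41 (0.161). HOXD11 stood opposite to them with -0.46 (adjusted p = 0.0771).

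A fibroblast gene moved with these early differences. COL1A1, which encodes a collagen chain, measured 5.81, 4.02 and 4.84 RPKM in CAF medium and 1.91, 1.37 and 2.89 RPKM in control medium at 3, 6 and 12 h (log2 1.11, limma, adjusted p = 0.0259). It passed in 3 of 6 fits with a time left out (adjusted p up to 0.174) and missed the threshold with no filter on low values (0.154). At 24, 48 and 72 h COL1A1 measured 4.31, 3.65 and 2.60 RPKM in CAF medium and 2.45, 4.18 and 4.27 RPKM in control medium. The log2 difference of that period was -0.03 (limma, adjusted p = 0.957). The other 7 fibroblast markers were too low to be tested. THY1, a surface protein, measured 0.53, 0.57, 0.92, 1.27, 1.37 and 2.22 RPKM in CAF medium and 0.14, 0.12, 0.15, 0.17, 1.13 and 1.18 RPKM in control medium at 3 to 72 h, higher in CAF medium at 6 of 6 times. PDGFRB, a receptor of mesenchymal cells, lay between 0.02 and 0.07 RPKM in CAF medium and between 0 and 0.05 RPKM in control medium, where 3 libraries were listed at 0. DCN, LUM and PDGFRA lay between 0.13 and 1.43 RPKM in CAF medium and between 0.13 and 1.09 RPKM in control medium, and the collagen genes COL1A2 and COL3A1 at or below 0.12 and 0.16 RPKM in every library. The part of fibroblast RNA in the HOX values was not tested.

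Epithelial markers also moved, 1 of the 6 at 3 to 12 h, 2 at 24 to 72 h and 1 over the 6 times, all upward in CAF medium. Over all tested genes 3.77, 1.36 and 6.06% rose, in that order. KRT19, a keratin, measured 16.6, 4.09 and 4.89 RPKM in CAF medium and 1.94, 1.56 and 2.65 RPKM in control medium at 3, 6 and 12 h (log2 1.58, limma, adjusted p = 0.0217), and passed in 4 of 6 fits with a time left out (adjusted p up to 0.107). EPCAM, an epithelial adhesion protein, measured 0.66, 0.92, 1.32, 3.17, 3.98 and 6.46 RPKM in CAF medium and 0.24, 0.34, 0.85, 0.67, 2.50 and 3.30 RPKM in control medium at 3 to 72 h. It rose over the 6 times (log2 0.82, limma, adjusted p = 0.0174) and at 24 to 72 h (log2 1.03, adjusted p = 0.0202), each in 4 of 6 such fits (adjusted p up to 0.0611 and 0.101). CDH1, which encodes E-cadherin, rose at 24 to 72 h, with 13.5, 19.2 and 40.0 RPKM in CAF medium against 4.68, 12.3 and 23.6 RPKM in control medium (log2 0.94, limma, adjusted p = 0.0434), in 2 of 6 such fits (up to 0.184). EPCAM and CDH1 also rose with time, by slopes of 0.54 and 0.38 (limma, adjusted p = 0.00171 and 0.0165), EPCAM in 6 of 6 and CDH1 in 4 of 6 such fits. The abundant keratins KRT7, KRT8 and KRT18 passed no test. The part of these shifts in the HOX values, with medium or with time, was not tested.

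At 24 to 72 h HOXC10 alone rose (log2 0.66 ± 0.15, limma, adjusted p = 0.0334), and 0 fell, against 1.36% up and 2.74% down over all tested genes. HOXC10 missed the threshold without 6 h (adjusted p = 0.0548), 12 h (0.0507), 24 h (0.140), 48 h (0.221) or 72 h (0.0630), and with no filter on low values (0.109). Of the 23 differences 14 were below 0 with a median of -0.13, against 46.7% above 0 and a median of -0.02 over all tested genes. This lean rests on the 48 and 72 h libraries: without 48 h 12 of 23 were above 0 with a median of 0.05, without 72 h 11 were, with a median of -0.01, and without 24 h the median was -0.21. The lowest, with all 3 times, were those of HOXC6 and HOXC9. HOXC6, a gene of the thoracic region, measured 3.98, 2.54 and 3.14 RPKM in CAF medium and 5.12, 5.0 and 5.11 RPKM in control medium at 24, 48 and 72 h (log2 -0.60 ± 0.16, limma, adjusted p = 0.0652). HOXC9, also of the thoracic region, measured 10.3, 7.53 and 10.1 RPKM in CAF medium and 15.7, 14.6 and 11.9 RPKM in control medium (log2 -0.57 ± 0.16, limma, adjusted p = 0.0699). Neither group pair overlapped, and neither gene passed the test, though HOXC6 passed under quantile normalization (adjusted p = 0.0474). HOXB9 lay on the other side with 7.15, 12.0 and 9.65 RPKM in CAF medium and 6.04, 6.72 and 7.22 RPKM in control medium (log2 0.47 ± 0.15, limma, adjusted p = 0.108).

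**Figure D2:**
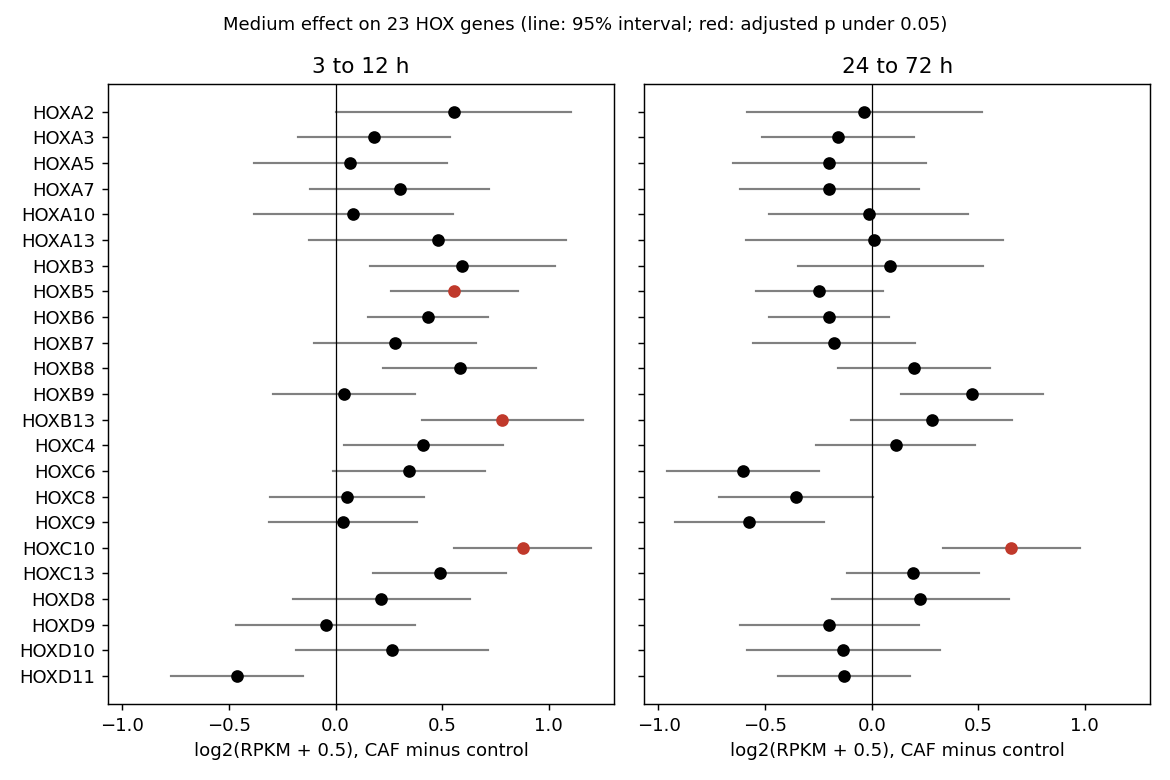
CAF minus control differences of 23 HOX genes on log2(RPKM + 0.5), at 3 to 12 h on the left and 24 to 72 h on the right; points are estimates, lines their 95% limma intervals and red points have an adjusted p under 0.05. On the left 21 of 23 points lie above 0 and on the right 9 of 23, and HOXC10 is red on both sides.

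The change of the medium effect between the periods was tested as late minus early. It was below 0 for 20 of 23 HOX genes with a median of -0.40, against 40.9% above 0 and a median of -0.06 over all tested genes. None passed limma's test (0 of 23, with 4 at an unadjusted p under 0.05), while 0.416% of all tested genes did. The largest were -0.95 ± 0.23 for HOXC6 (adjusted p = 0.113), -0.80 ± 0.19 for HOXB5 (adjusted p = 0.108) and -0.64 ± 0.18 for HOXB6 (adjusted p = 0.192). HOXC6 was higher in CAF medium at 3 to 12 h, with 5.28, 4.51 and 4.57 RPKM against 3.04, 3.59 and 4.44 RPKM in control medium, and lower at each later time. HOXB6 measured 14.1, 14.9 and 19.4 RPKM in CAF medium and 9.45, 11.9 and 14.3 RPKM in control medium at 3 to 12 h, and then 15.4, 10.5 and 13.2 RPKM in CAF medium and 16.7, 14.2 and 13.8 RPKM in control medium. HOXB5 crossed in the same way, with 4.31, 4.54 and 4.60 RPKM in CAF medium and 5.20, 5.10 and 5.95 RPKM in control medium at 24 to 72 h. The CAF medium values of all 3 genes were thus above control medium early and below it late. Without 24 h HOXC6 passed (log2 -1.09, limma, adjusted p = 0.0485).

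**Figure D3:**
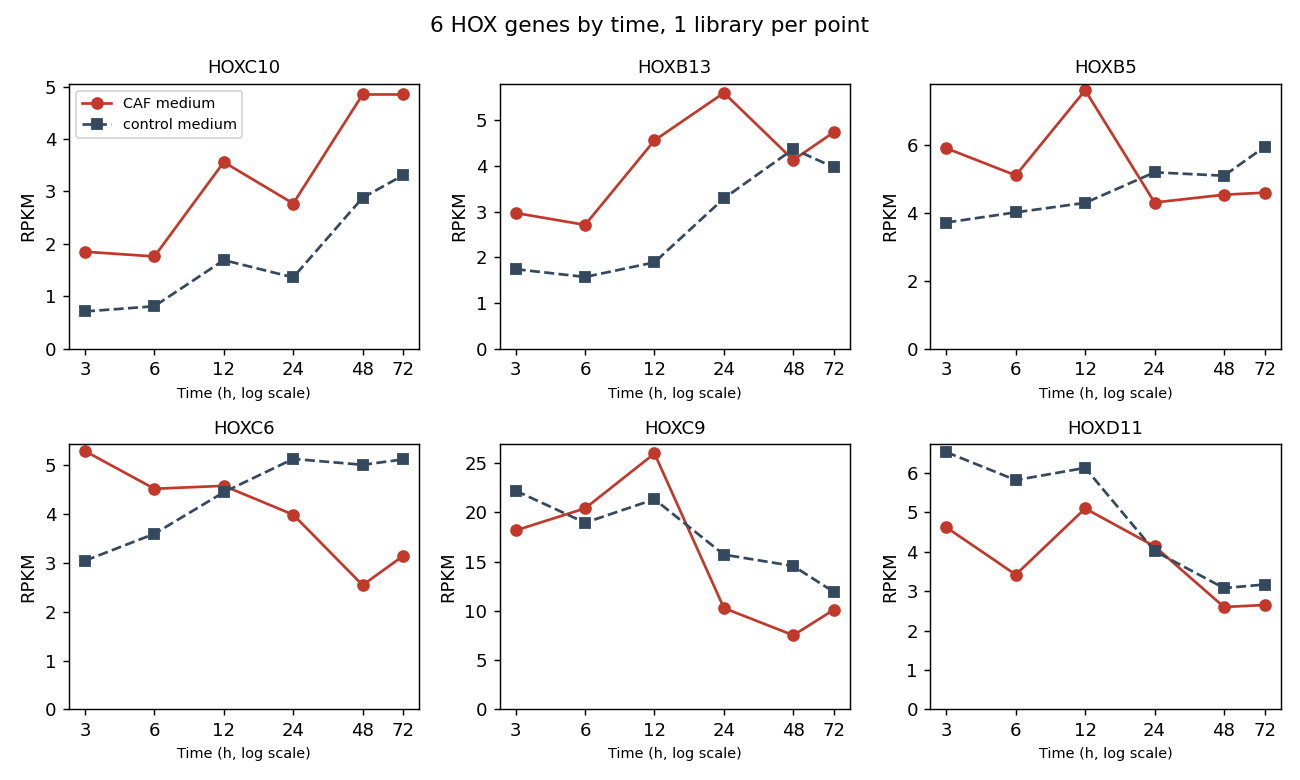
RPKM of 6 HOX genes against time on a log scale, with 1 library per point, red circles for CAF medium and dark squares for control medium. HOXC10 lies higher in CAF medium at all 6 times, HOXB5 and HOXC6 change places between 12 and 24 h, and HOXC9 and HOXD11 come down with time in both media.

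Single times have no test. A log2 difference of at least 1 was reached by HOXA2 and HOXA13 at 3 h, by HOXB13 at 12 h and by no HOX gene at 6, 24, 48 or 72 h. Over all tested genes 2.18, 3.29, 4.29, 4.09, 5.4 and 0.906% reached it at 3, 6, 12, 24, 48 and 72 h. HOXA13, a gene of the digits and the urogenital tract, measured 3.04 RPKM in CAF medium and 0.91 RPKM in control medium at 3 h, but 0.88 RPKM in CAF medium and 1.46 RPKM in control medium at 12 h. HOXA2, which patterns the second branchial arch, measured 1.73 RPKM in CAF medium and 0.53 RPKM in control medium at 3 h and lay between 0.83 and 1.33 RPKM at the later CAF medium times. The median log2 difference of the 23 HOX genes was 0.56, 0.29, 0.26, 0.22, -0.14 and -0.08 at 3, 6, 12, 24, 48 and 72 h. At 48 h 18 of the 23 were below 0, against 43.7% above 0 over all tested genes.

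The second comparison asked which HOX genes changed over the 72 h in culture whichever the medium, as a slope of the mean of both media on log2 of the hours. Of the 23 tested HOX genes 4 rose and 3 fell with time, against 15.1% up and 9.62% down over all tested genes. These 7 were among the 10 tested members numbered 9 to 13, the 5′ side, and 0 of the 13 tested members numbered 2 to 8 passed. This division by number was chosen after the values were seen, and no test compared its sides. HOXC10 rose by log2 0.33 ± 0.05 per doubling of time (limma, adjusted p = 0.00383), HOXB13 by 0.22 ± 0.04 (0.00849), HOXC13 by 0.14 ± 0.04 (0.0334) and HOXB9 by 0.13 ± 0.04 (0.0471). HOXC9 fell by 0.23 ± 0.06 on the same scale (adjusted p = 0.0148), HOXD9 by 0.20 ± 0.04 (0.0130) and HOXD11 by 0.19 ± 0.05 (0.0180).

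The paralogs of number 9 thus went in different directions. HOXC9 was at 18.2, 20.4, 26.0, 10.3, 7.53 and 10.1 RPKM in CAF medium at 3, 6, 12, 24, 48 and 72 h and at 22.2, 18.9, 21.3, 15.7, 14.6 and 11.9 RPKM in control medium. Each library from 24 h on was below each earlier library in either medium. HOXD9 was at 2.39, 1.72, 1.54, 1.56, 1.10 and 0.61 RPKM in CAF medium and at 2.42, 1.40, 2.10, 1.36, 1.26 and 1.19 RPKM in control medium. HOXB9, which with the other genes of its number patterns the thoracic region in the mouse, was at 6.31, 6.22, 5.15, 7.15, 12.0 and 9.65 RPKM in CAF medium and at 5.78, 5.18, 6.17, 6.04, 6.72 and 7.22 RPKM in control medium. Its climb was larger in CAF medium, a difference that did not pass the test of late minus early above. HOXA9, a gene of blood precursors, was too low to be tested, with at most 0.53 RPKM.

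The genes numbered 10 to 13 also divided. HOXD11 was at 4.62, 3.42, 5.10, 4.14, 2.60 and 2.65 RPKM in CAF medium and at 6.53, 5.82, 6.13, 4.02, 3.08 and 3.17 RPKM in control medium, so that the 48 and 72 h libraries were the lowest in each. Its promoter window is the one printed above with the TGATTNAT match, and a link of that match to the change with time was not tested. HOXA2, the other gene with the match, had a slope of 0.09 (limma, adjusted p = 0.199). HOXC13 was at 2.52, 2.59, 2.74, 3.03, 3.87 and 3.31 RPKM in CAF medium and at 1.90, 1.50, 1.78, 2.40, 3.31 and 3.05 RPKM in control medium, highest at 48 h in both. HOXD10 ranged from 5.32 to 11.9 RPKM in CAF medium and from 6.54 to 9.32 RPKM in control medium (slope -0.01, limma, adjusted p = 0.863). HOXA10, which acts in the uterus, ranged from 0.71 to 1.93 and from 0.99 to 1.44 RPKM in the same order (slope -0.08, adjusted p = 0.272), and HOXA13 from 0.88 to 3.04 and from 0.91 to 2.44 RPKM (slope 0.07, adjusted p = 0.358).

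Of the members numbered 2 to 8, none had a slope past the threshold, and HOXA5 and HOXB3 came nearest. HOXA5, the lung gene, ranged from 1.75 to 2.84 RPKM in CAF medium and from 1.48 to 3.34 RPKM in control medium (slope 0.09, limma, adjusted p = 0.0949), and HOXB3 from 3.14 to 5.29 and from 2.47 to 6.19 RPKM (slope 0.11, adjusted p = 0.0849). HOXA3, HOXA7, HOXC4, HOXC8 and HOXD8 had means of 3.03 to 5.10 RPKM with slopes from -0.06 to 0.08. HOXC8 measured 2.36 to 6.00 RPKM in CAF medium and kept within 4.22 to 5.18 RPKM in control medium. HOXB7 was at slope -0.12 (adjusted p = 0.197), with its lowest value at 48 h in CAF medium and at 72 h in control medium.

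**Figure D4:**
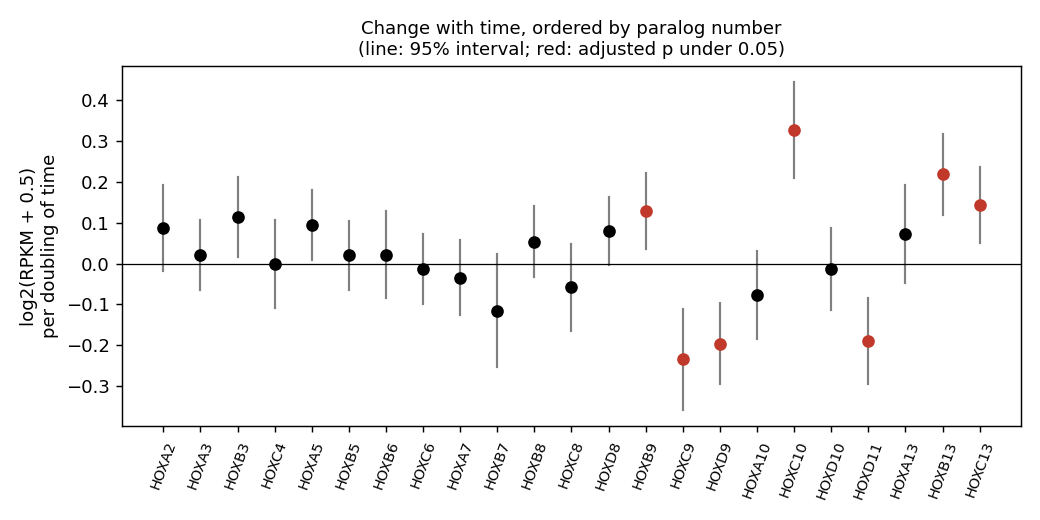
Slope of log2(RPKM + 0.5) per doubling of time, from the mean of both media at each of 6 times, for 23 HOX genes in order of paralog number; lines are 95% limma intervals and red points have an adjusted p under 0.05. The 7 red points all belong to paralogs 9 to 13, with HOXC10 at 0.33 the highest and HOXC9 at -0.23 the lowest.

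The calls of the time slopes depended on the times in the fit. Without 72 h the slopes stayed near those of all 6 times. They were -0.24 for HOXC9, 0.16 for HOXC13, 0.13 for HOXB9, -0.18 for HOXD11 and -0.17 for HOXD9. Calls became fewer over all tested genes as well. There 563 rose and 253 fell without 72 h, 790 and 433 without 48 h, and 869 and 533 without 6 h. With all times 1811 rose and 1157 fell. Without 72 h only HOXC10 and HOXB13 passed among the HOX genes, and without 48 h only HOXC10, HOXB13 and HOXD9. Without 72 h and without 48 h the adjusted p was 0.113 and 0.140 for HOXC13, 0.180 and 0.181 for HOXB9, 0.0667 and 0.0642 for HOXC9, and 0.0985 and 0.0777 for HOXD11. HOXD9 missed the threshold without 72 h (0.105) and without 3 h (0.0770), and without 6 h HOXC13 (0.123) and HOXB9 (0.143) missed it. HOXB9 also missed it under median centring (0.0624) and quantile normalization (0.0695), and HOXC13 under quantile normalization (0.0732), where HOXA10 passed (-0.14, adjusted p = 0.0436). With no filter on low values HOXC13, HOXB9 and HOXD11 missed it (limma, adjusted p = 0.0777, 0.0828 and 0.0544). In that setting HOXD1 and HOXA11, both with means under 0.1 RPKM, passed upward. The later libraries were deeper than the earlier ones, with no overlap, so that depth and time cannot be told apart.

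Non-coding RNAs named for the clusters were set beside the HOX genes, and whether they moved with neighbouring genes was not tested. Of 11 listed RNAs 3 were tested, and 2 rose with time, against 15.1% of all tested genes. HOTAIRM1, which lies at the 3′ end of the HOXA cluster and acts in myeloid cells, was more abundant than any HOXA gene, with 12.8 to 33.0 RPKM in CAF medium and 8.22 to 25.9 RPKM in control medium. HOXB-AS1 measured 4.16 to 10.4 RPKM in CAF medium and 3.01 to 11.1 RPKM in control medium. Both rose with time, HOTAIRM1 by log2 0.23 ± 0.05 per doubling (limma, adjusted p = 0.0129) and HOXB-AS1 by 0.31 ± 0.05 (adjusted p = 0.00504). HOXB-AS1 passed whichever time was left out and HOTAIRM1 in 4 of 6 such fits (adjusted p up to 0.0899). For the medium effect over 6 times their log2 differences were 0.48 and 0.43 (adjusted p = 0.0703 and 0.0787), and HOXC-AS5 was at -0.19 (adjusted p = 0.608). HOTAIR, which lies between HOXC11 and HOXC12 and is known for binding Polycomb proteins, was at 0.01 to 0.53 RPKM in CAF medium and at 0 to 0.36 RPKM in control medium, with 72 h the highest in each. These RNAs overlap or abut HOX genes, and the counting's use of strand is not given in the sources used here.

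Small RNAs encoded in the clusters were measured in the second assay. miR-10a lies near HOXB4, miR-10b near HOXD4, miR-196a beside HOXB9 and HOXC10, miR-196b beside HOXA9, and miR-615 in HOXC5. miR-196 directs cleavage of Hoxb8 mRNA in mouse embryos, and miR-10b represses HOXD10 in human breast cancer cells. Their mature sequences, from RefSeq on GRCh38.p14, are shown with the seed, bases 2 to 8, in capitals to show which share a seed and so could reach the same targets.
hsa-miR-10a-5p: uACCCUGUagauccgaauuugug
hsa-miR-196a-5p: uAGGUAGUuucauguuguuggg
hsa-miR-196b-5p: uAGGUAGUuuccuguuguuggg
hsa-miR-615-3p: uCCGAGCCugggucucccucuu

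Among the printed sequences, miR-196a-5p and miR-196b-5p carry 1 seed, and those of miR-10a-5p and miR-615-3p differ from it and from each other. The sequence of miR-10b-5p was missing from the source used, so its seed was not compared with that of miR-10a-5p or the others. Among 10 arms listed, 6 had a mean of at least 10 RPM and were tested among 470 miRNAs. miR-10a-5p was by far the most abundant, with a mean of 3771 RPM and a range of 3017 to 5498 RPM in CAF medium and 1850 to 6662 RPM in control medium. miR-10b-5p measured 92.8 to 239 RPM in CAF medium and 48.7 to 149 RPM in control medium. It was higher in CAF medium at 5 of 6 times (log2 0.57 ± 0.24 on log2(RPM + 1), limma, adjusted p = 0.436), while HOXD10 differed between media by log2 0.07 (adjusted p = 0.811). miR-196a-5p measured 68.3 to 145 RPM in CAF medium and 59.0 to 120 RPM in control medium, miR-196b-5p 25.4 to 78.6 and 35.6 to 48.6 RPM in that order, and miR-615-3p 23.02 to 46.1 and 24.4 to 51.6 RPM.

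None of the 6 arms passed the test between media, and no other miRNA did, by limma (0.0% of 470, with 49 at an unadjusted p under 0.05) or by edgeR on the recovered reads (0 of 470, with 51 unadjusted). Of the 6 arms 0 changed with time, against 6.6% of the 470 miRNAs (limma). The 95% interval of the medium effect ran from -0.28 to 0.60 on the log2 scale for miR-196a-5p and from -0.47 to 0.82 for miR-10a-5p, so that differences of this size were not detectable between these libraries. miR-10a-3p was higher in CAF medium at 6 of 6 times, with 81.4 to 128 RPM against 76.1 to 108 RPM in control medium (log2 0.25, limma, adjusted p = 0.648).

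The proteins that work with HOX factors or set their clusters were given from fixed lists, chosen, as the HOX genes were, with earlier results of these data known. Of the TALE cofactors, which bind DNA beside HOX proteins, 6 of 9 were tested and 2 rose in CAF medium over the 6 times. Over all tested genes 6.06% did. PBX4 averaged 2.23 ± 0.46 RPKM in CAF medium and 1.44 ± 0.32 RPKM in control medium (SD over 6 times, log2 0.49, limma, adjusted p = 0.0492), and MEIS3 9.18 ± 1.77 and 6.02 ± 1.89 RPKM in that order (log2 0.60, adjusted p = 0.0429). MEIS3 rose most at 3 to 12 h (log2 0.93, adjusted p = 0.0230), in 4 of 6 fits with a time left out (adjusted p up to 0.154). In that period 1 of the 6 rose and 0 fell, against 3.77% and 1.86% of all tested genes. PBX4 passed in 1 of 6 fits with a time left out (adjusted p up to 0.140) and MEIS3 over the 6 times in 2 of 6 (up to 0.132), and PBX4 missed the threshold under quantile normalization (0.0727). PBX3, with 7.58 to 16.1 RPKM, fell with time (slope -0.13, limma, adjusted p = 0.0470), in 2 of 6 fits with a time left out.

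Genes just outside the clusters were set beside them. Of 12 flanking genes 8 were tested, and CALCOCO1, the neighbour of HOXC13, rose in CAF medium (log2 0.61 ± 0.09, limma, adjusted p = 0.0128). It measured 12.2, 12.0, 14.8, 13.9, 19.0 and 27.4 RPKM in CAF medium and 7.66, 6.40, 8.85, 8.52, 13.5 and 21.99 RPKM in control medium at 3 to 72 h. Like HOXC10 and HOXC13 it was higher in CAF medium at 6 of 6 times and rose with time in both media (slope 0.26, adjusted p = 0.0104), the slope missing the threshold without 72 h (0.0912). The medium effect passed in 4 of 6 fits with a time left out (adjusted p up to 0.0538). On the other side of HOXC, CBX5, which encodes a heterochromatin protein, fell in CAF medium at 24 to 72 h (log2 -0.62, limma, adjusted p = 0.0420), in 1 of 6 fits with a time left out, and fell with time (slope -0.14, adjusted p = 0.0437) in 2 of 6. TTLL6, near the 5′ end of HOXB beside HOXB13, rose with time (slope 0.26, adjusted p = 0.00485), whichever time was left out. MTX2 beside HOXD was the most abundant flanking gene, with 11.02 to 20.2 RPKM, and passed no test. Of the 8 tested, 1 rose in CAF medium over the 6 times, against 6.06% of all tested genes. At 24 to 72 h 0 rose and 1 fell, against 1.36% and 2.74%. With time 2 rose and 1 fell, against 15.1% and 9.62%.

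Of the Polycomb proteins 21 of 22 were tested. Over the 6 times 0 rose and 1 fell in CAF medium, against 6.06% and 4.13% of all tested genes. With time 2 rose and 2 fell, against 15.1% and 9.62%. PHF19, a partner of the complex that methylates histone H3, fell in CAF medium (log2 -0.46, limma, adjusted p = 0.0209), with 3.88 ± 0.93 RPKM in CAF medium and 5.61 ± 1.70 RPKM in control medium (SD over 6 times), in 3 of 6 fits with a time left out. With time EZH1 and CBX7 rose (slopes 0.16 and 0.22, limma, adjusted p = 0.0110 and 0.0185) and EZH2 and PHF19 fell (-0.14 and -0.20, adjusted p = 0.0274 and 0.0104). All 4 slopes missed the threshold without 72 h (adjusted p = 0.0748 for EZH1, 0.157 for CBX7, 0.163 for EZH2 and 0.0929 for PHF19), and EZH1, CBX7, EZH2 and PHF19 passed in 4, 3, 3 and 5 of the 6 fits with a time left out. CBX7 also missed it under quantile normalization (0.0574). EZH1 and EZH2 are the alternative methyltransferases of that complex. RBBP7 was the most abundant of the list, with 48.1 to 66.1 RPKM. Of 9 Trithorax proteins and histone demethylases, among them KMT2A, the histone methyltransferase that keeps HOX genes active, and KDM6A and KDM6B, which remove the Polycomb mark, 0 passed a test, and DPY30 was the most abundant with 19.7 to 39.2 RPKM.

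Retinoic acid induces the 3′ HOX genes in embryos, and 10 of 15 listed genes of its pathway were tested. CRABP2, which carries retinoic acid to its receptors, rose in CAF medium over the 6 times (log2 0.72, limma, adjusted p = 0.0341), with 3.36 ± 1.66 RPKM in CAF medium and 1.91 ± 1.43 RPKM in control medium, in 1 of 6 fits with a time left out. At 3 to 12 h the receptor gene RARG rose (log2 0.89, limma, adjusted p = 0.0120) and ALDH1A3, an enzyme that makes retinoic acid, fell (-0.75, adjusted p = 0.0264), in 4 and 3 of 6 such fits. So 1 of the 10 rose and 0 fell over the 6 times, against 6.06% and 4.13% of all tested genes. At 3 to 12 h 1 rose and 1 fell, against 3.77% and 1.86%. With time 5 of the 10 rose, RARB, RARG, CYP26B1, CRABP2 and STRA6, and 0 fell (limma). Over all tested genes 15.1% rose and 9.62% fell with time. CRABP2 and STRA6, with slopes of 0.36 and 0.27 (adjusted p = 0.00336 and 0.00409), passed whichever time was left out. RARB, RARG and CYP26B1 passed in 3, 2 and 3 of 6 such fits (adjusted p up to 0.157, 0.102 and 0.153), and RARB and CYP26B1 missed the threshold under quantile normalization (0.0545 and 0.102). ALDH1A1 was by far the most abundant, with 3105 to 4768 RPKM. The ParaHox genes, relatives of the HOX genes outside the clusters, were near 0, with CDX2 and PDX1 at most at 0.22 and 0.29 RPKM, and 0 of 6 were tested. PBX2, PHF1, CDX4 and GSX2 of these lists were not analysed here. With no filter on low values 0 of the medium effects named from the lists passed (adjusted p = 0.0689 to 0.184), and with no time term 0 of those over the 6 times did (0.331 to 0.427). The time slopes of CBX5, CBX7, CDH1, CYP26B1, PBX3 and RARB also missed the threshold with no filter (0.0625 to 0.0834).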

How the data were processed

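The mRNA values are RPKM to 2 decimals with gene model lengths, as deposited by the authors; TopHat2, edgeR and the build hg19 are named in the submitters' processing notes. Per the labels' protocols, polyadenylated RNA went into directional libraries. The small RNA values, named TPM per the labels, sum to 1 total in each library without length correction and were treated as RPM deposited by the authors (Bowtie and hg19, per the submitters' processing notes). Not given in the sources used here are the counting, its use of strand, the annotation and the joining of replicates.

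Columns were matched to samples by the codes in the labels. Depth was recovered from the steps between low values: 100% of 50 to 78 mRNA values (genes under 400 bases) and of 1028 to 1579 miRNA values per library were whole reads within 0.1 read. Implied reads cover counting error only.

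Tests used limma 3.58.1 in R 4.3.3, two-sided and moderated with a mean-variance trend. Genes averaging at least 1 RPKM entered as log2(RPKM + 0.5) and miRNAs with a mean of at least 10 RPM as log2(RPM + 1), scales that understate changes of low genes. Adjustment was by Benjamini-Hochberg over all tested features at 0.05. The medium effect over 6 times had time as a factor (5 residual degrees of freedom), the effects of the 2 periods were fitted together with 3 pairs each (4 degrees of freedom), and the time slope used the mean of both media at each time (4 degrees of freedom). edgeR 4.0.16 was run on recovered miRNA reads, an alternative chosen after seeing the data, and called 0 of 470 miRNAs for the medium and 83 for time, against 31 by limma. Every HOX symbol is a member; those of at least 1 RPKM are named singly, the others by range, count and the highest per cluster, and of the lists those past the threshold and the most abundant. The values of 1 HOX gene and 1 cofactor gene are not reported here. Members and lists were chosen with earlier results of these data known. Promoter and miRNA sequences are from RefSeq tables on GRCh38.p14.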

Additional observations from a re-analysis of the deposited data

Results flagged for a closer look

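HOXB7 in CAF medium at 12 h measured 86.1 RPKM, while the other 5 CAF medium libraries lay between 27.0 and 47.5 RPKM. It was the 1 gap of this kind among 58 sets of 6 libraries examined, where chance gives about 1 in 20.

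For 3 of 23 tested HOX genes every early pair had CAF medium higher and every late pair had it lower: late minus early was -0.803 for HOXB5, -0.635 for HOXB6 and -0.948 for HOXC6 on the log2 scale (limma, adjusted p = 0.108, 0.192 and 0.113). Over all tested genes 408, or 3.39%, had opposite signs in the 2 periods, a count that takes either order of the signs.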

How the results depend on the processing

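Numbers of HOX genes past the threshold were 2 over the 6 times, 3 at 3 to 12 h, 1 at 24 to 72 h, 0 for late minus early and 7 for time. With no filter on low values, which puts 22026 genes in the adjustment, they were 0 over the 6 times, 0 at 3 to 12 h and 0 at 24 to 72 h. For time 4 then rose and 2 fell, with HOXD1 and HOXA11 in place of HOXC13 and HOXB9 among those that rose, and without HOXD11. With no time term the count over the 6 times was 0, and quantile normalization gave 2 at 24 to 72 h; the cause was not tested. Leaving out each time in turn gave 1 to 3 over the 6 times, 0 to 4 at 3 to 12 h, 0 to 2 at 24 to 72 h, 0 to 1 for late minus early, 2 to 7 for time and 0 to 0 for the miRNAs of the clusters. Counts stayed within 1.5 times under the other pseudocounts, the lower filter and median centring. No called effect changed sign, while 34 of 102 uncalled effects of single HOX genes did under some alternative. The medium tests compare the 2 media within each time, and the labels give no replicate numbers for a further pairing. With 1 library per medium and time, the spread at a single time is unknown. Members under 1 RPKM were left out of the main tests by that limit. Their reads varied widely: HOXB4 had 12 to 78 implied reads in a library and HOXB1 at most 1.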
